A study of Mus musculus with 2 samples.

Results

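The 6 miRNA names mmu-miR-3960, mmu-miR-3963, mmu-miR-3968, mmu-miR-5100, mmu-miR-5126 and mmu-miR-6236 were examined, out of 1881 mouse miRNAs on the array. The prefix mmu, for mouse, is mostly left out below. They are registry entries of high number that were picked by name, some for a bright signal and some because they were suspected to be pieces of structural RNA or because the total listed for them looked too large. Brightness and listed totals therefore helped to choose them, and those values are given below as a description. The RNA came from exosomes, small membrane vesicles that cells shed, collected from the medium over LLC (Lewis lung carcinoma) cells, an established mouse lung tumour line. Both samples belong to 1 group: the cells were given 5 µM cisplatin, a DNA-damaging platinum compound, for 24 h without serum. For growth of the cells, as distinct from this treatment, the labels of both samples list serum. The labels give 2 independent experiments with a one-colour array apiece. No untreated exosomes or parent cells were analysed here, so the arrays show what these vesicles gave and how well it repeated, not what the drug changed.

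A miRNA is a short RNA that is cut from a hairpin precursor and guides a silencing complex to mRNAs, which it finds mainly through its seed, the bases from position 2 to 8. Registry entries of high number mostly come from deep sequencing, and a short read from an abundant structural RNA, such as a ribosomal or transfer RNA, can enter such a registry under a miRNA name. Exosomes carry fragments of these structural RNAs as well as miRNAs. A hybridisation array reads only the strength of binding to its probes and cannot tell a mature miRNA from a fragment or precursor with the same bases.

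The sequences of the names are printed with the seed in capitals, from RefSeq on build GRCm38.p6. A mature sequence was matched for 5 of the 6 names, and miR-3960 is shown by its whole hairpin, in lower case.
miR-3963: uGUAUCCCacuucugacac
miR-3968: cGAAUCCCacuccagacacca
miR-5100: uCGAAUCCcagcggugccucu
miR-5126: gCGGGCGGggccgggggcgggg
miR-6236: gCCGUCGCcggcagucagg
miR-3960 hairpin: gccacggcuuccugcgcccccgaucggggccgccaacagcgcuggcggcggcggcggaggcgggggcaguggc
All 5 seeds differ from each other, and 0 other array miRNAs with a matched sequence carried any of them. The mature sequences lie at chr3:151023839-151023857 on the minus strand for miR-3963, chr11:115447969-115447989 on the minus strand for miR-3968, chr11:60728698-60728718 on the plus strand for miR-5100, chr1:84695890-84695911 on the plus strand for miR-5126 and chr9:110281353-110281371 on the plus strand for miR-6236. The miR-3960 hairpin lies at chr2:32712900-32712972 on the minus strand. In the RefSeq gene table, the miR-3968 gene overlaps Trim80, that of miR-5100 overlaps Mief2 and that of miR-5126 overlaps Dner, all protein-coding, while that of miR-6236 overlaps the long non-coding RNA gene Gm39429. The miR-3960 gene overlaps no other gene there and neighbours Mir2861, with which it forms a cluster studied in osteoblasts, and the miR-3963 gene overlaps none.

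By sequence the names fell into 2 sets, with miR-3960 placed by its hairpin alone. The first, miR-3963, miR-3968 and miR-5100, shared a run of 6 bases near the 5′ end, printed here in capitals.
miR-3963: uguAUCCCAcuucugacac
miR-3968: cgaAUCCCAcuccagacacca
miR-5100: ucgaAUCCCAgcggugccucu
The run AUCCCA starts at base 4 of miR-3963 and miR-3968 and at base 5 of miR-5100. The longest run that miR-3968 shares with miR-5100 has 9 bases, and the longest it shares with miR-3963 has 8. This motif was picked after the sequences were read, and it was searched on the mature strand only. It stood in 7 of the 1608 array miRNAs with a matched mature sequence (0.435%), the 3 names and 4 others, none of which was detected on either array. Those 4 were miR-191-5p, miR-6963-3p, miR-7656-3p and miR-7679-3p, with unscaled log2 intensities from 0.045 (miR-191-5p on array 1) to 1.21 (miR-6963-3p on array 1). In these the run starts at base 8, 15, 13 and 5, in the order named. Over all array miRNAs 16.6% were detected on at least 1 array, so 4 names cannot show whether the run goes with a signal. miR-3968 also ends in CCA, the ending that is added to transfer RNAs after transcription, and 22 array miRNAs (1.37%) end so. Its RefSeq hairpin holds these bases too. No transfer or ribosomal RNA sequence was used here, so whether any of these names matches one was not tested.

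The second set was rich in G and C. miR-5126 consists of these bases alone (100% G and C, 77.3% G), and no other of the 1608 mature sequences had more of either measure. miR-6236 had 78.9% G and C, with 19 array miRNAs above it. The miR-3960 hairpin had 82.2%, which cannot be set against the medians below, as those are for mature sequences. For miR-5126 the hairpin had 83.1%, less than its mature sequence. The median was 52.2% over all 1608 array miRNAs and 59.1% over the 168 of them that were detected on both arrays. By contrast miR-3963 (47.4%), miR-3968 (57.1%) and miR-5100 (61.9%) lay near these medians.

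**Figure D1:**
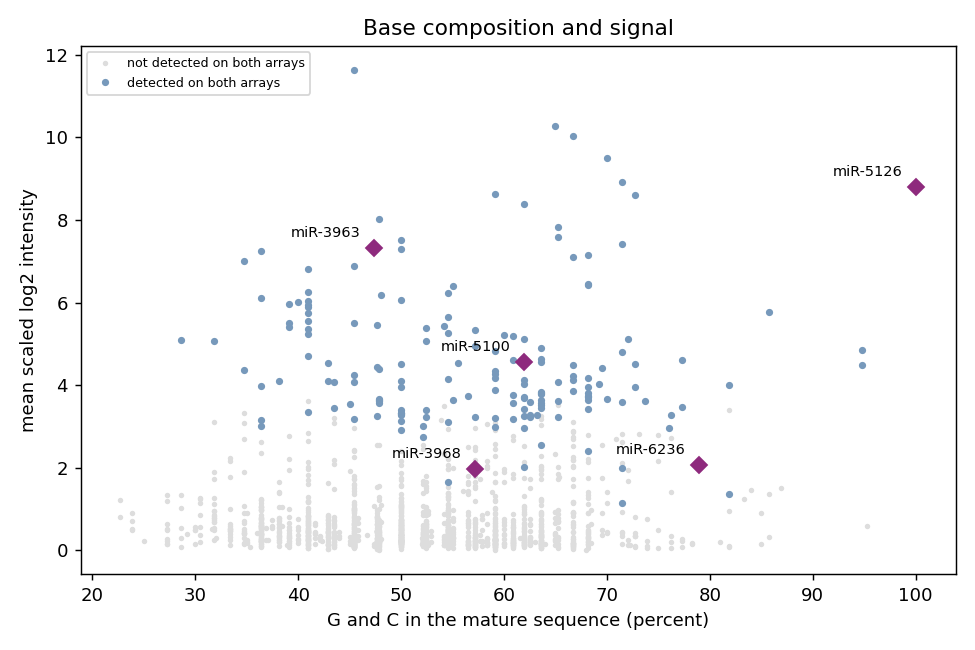
Percent of G and C in the mature sequence (x axis) against the mean scaled log2 intensity over both arrays (y axis) for the 1608 array miRNAs with a matched sequence. Diamonds mark the 5 matched names: miR-5126 sits alone at 100%, while miR-6236, at 78.9%, lies as low as miR-3968.

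A miRNA counts as detected when the scanner file flags it, that is, when at least 1 of its probes has a total signal over 3 times the error of that total. Of the 6 names, 4 were detected on both arrays, namely miR-3960, miR-3963, miR-5100 and miR-5126, against 10.7% of all array miRNAs (201 of 1881). As brightness helped to choose them, nothing follows from the gap between these shares. Array 1 detected all 6 names (background 16.6%), and array 2 the same 4 as above (background 10.7%), so miR-3968 and miR-6236 were found on array 1 only. When the majority of a miRNA's spots had to lie well above background on both arrays, the count stayed at 4, whereas 4.63% of array miRNAs passed. It was also 4 when a probe total had to exceed 6 times its error on both arrays (background 4.52%), and when the mean intensity had to exceed the negative controls by 3 SD on both (background 8.35%). When every probe had to pass on both arrays it was 3 (background 6.17%), because the weaker probe of miR-5100 failed on array 2.

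The array as a whole gave the following frame. Each array has 58594 spots, of which 0 were saturated, and 1000 negative-control spots, whose mean plus 3 SD corresponded to log2 intensities of 2.92 on array 1 and 3.29 on array 2. The 4 detected spike-in controls were brighter on array 1 by 0.062 to 0.27 log2 units. Among miRNAs detected on both arrays the median excess of array 1 was 0.78, with quartiles of 0.19 and 1.66. Scaling set the 75th percentile of these miRNAs equal and thereby removed 1.71 log2 units. Of 10 marker miRNAs of red cells, leukocytes, hepatocytes, endothelium and muscle, 0 were detected on both arrays and 1 on array 1 only, and miR-21a-5p, a miRNA that carcinomas often express strongly, had unscaled log2 intensities of 8.16 and 6.34. With 1 group of 2 arrays no test between conditions exists, no p-value was computed, and the number of arrays limits the precision of every value.

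mmu-miR-5126, the G-rich name, was the brightest of the 6. Its unscaled log2 intensity was 9.23 on array 1 and 8.35 on array 2, and after scaling the mean was 8.79 ± 0.59 (SD, n = 2). It stood at place 7 of the 201 miRNAs detected on both arrays, by mean scaled intensity. Both arrays gave all 30 spots of its probes well above background. Probe 1 had a mean spot intensity of 537 on array 1 and 290.1 on array 2, and probe 2 of 674 and 369.6. The probes therefore differed by 1.26-fold on array 1 and 1.27-fold on array 2, less than the 1.84-fold gap between the arrays.

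mmu-miR-3963, from the set with the shared run, had unscaled log2 intensities of 7.82 and 6.83 on arrays 1 and 2. After scaling the mean was 7.32 ± 0.51 (SD, n = 2), place 17 of the 201. All 30 spots were well above background on each array. Its probes disagreed: probe 2 was 2.93 times as bright as probe 1 on array 1 and 2.96 times on array 2. In spot intensities this was 386 against 132 on array 1 and 196 against 66.2 on array 2. The disagreement thus repeated almost exactly, although every value on array 1 was higher.

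mmu-miR-3960, which with its neighbour miR-2861 is known from bone-forming cells, gave 7.66 on array 1 and 6.85 on array 2. After scaling the mean was 7.25 ± 0.63 (SD, n = 2), place 19 of the 201. Probe 2 exceeded probe 1 by only 1.11-fold on array 1 and 1.15-fold on array 2, with all 30 spots well above background on both arrays. By mean log2 intensity miR-3963 was higher than miR-3960 on array 1 and barely lower on array 2, and by the sum of own probes, given below, it was higher on both. Brightness depends on the probe, so this order is not one of amount. miR-2861, looked up because of its position, was detected on both arrays at unscaled log2 intensities of 5.32 and 4.40.

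mmu-miR-5100 was detected on both arrays at a middling level, in its case through a single strong probe. Its unscaled log2 intensities were 4.69 and 4.43, and the scaled mean was 4.56 ± 1.03 (SD, n = 2), place 77 of the 201. Probe 2 gave mean spot intensities of 71.3 and 63.5, with 15 of 15 spots well above background on each array. Probe 1 gave 9.98 and 8.13, with 2 and 1 such spots. The total of probe 1 was 3.34 times its error on array 1, just inside the detection limit, and 2.68 times on array 2, just outside. The probes thus stood 7.15-fold apart on array 1. On array 2 the mean of probe 1 lay under the negative-control limit of 9.81, and against that limit probe 2 was at least 6.47-fold brighter. Between the arrays, miR-5100 was 1.20-fold brighter on array 1 before scaling, and lower there by 1.45 log2 units after it.

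mmu-miR-3968 and miR-6236 lay at the edge of detection. For miR-3968 the unscaled log2 intensity was 2.50 on array 1 and 1.45 on array 2, both under the negative-control limits of those arrays. Its mean spot intensity without logs, however, was 9.85 on array 1, above the limit of 7.55. On array 2 it was 2.83, under the limit of 9.81. On array 1 its probe 2 had a mean spot intensity of 19.8, with 14 of 15 spots well above background, and a total of 5.77 times its error. The same probe gave 6.55 on array 2, with 0 such spots and a total of 2.19 times its error. Probe 1 of miR-3968 gave nothing beyond background on either array, with mean spot intensities of 0.54 and -0.88. So the single detection of miR-3968 rests on 1 probe of 1 array.

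For mmu-miR-6236 the unscaled log2 intensity was 3.03 on array 1, only just above the limit of 2.92, and 1.11 on array 2. Its probe 2 reached 3.30 times its error on array 1, just inside the detection limit, and probe 1 reached 2.66 times, just outside. On array 2 these figures were 0.84 and 0.60. Of its 30 spots, 2 were well above background on array 1 and 0 on array 2. Neither miR-3968 nor miR-6236 was thus detected on both arrays, and no fold between arrays is given for them. The negative-control limit was set from single spots, so a mean under it does not show an absence of signal.

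**Figure D2:**
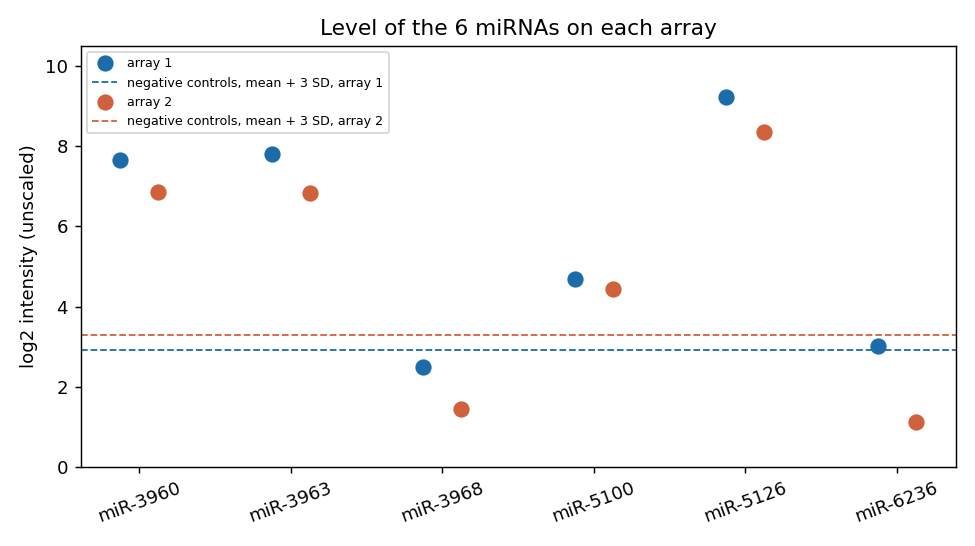
Unscaled log2 intensity (y axis) of the 6 names on array 1 and array 2, with each array's negative-control mean plus 3 SD as a dashed line. miR-5126, miR-3963, miR-3960 and miR-5100 lie above both lines on both arrays, and miR-3968 lies under them.

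Replicate spots of a probe agreed closely wherever the signal was strong. Each probe was printed as 15 spots, and the scanner software marked 5 of the 180 spots of the 6 names as outliers on array 1 and 9 on array 2, which were left out. Among the 7 probes with every spot well above background, the coefficient of variation between spots ran from 3.14% to 6.44% on array 1, with a median of 3.72%. On array 2 it ran from 1.38% to 9.06%, with a median of 4.36%. The gaps between probes of miR-3963 and miR-5100 are therefore far larger than the spread between spots. Over the 200 miRNAs detected on both arrays that have several probes, the median log2 gap between the brightest and the dimmest probe was 0.59 on array 1 and 0.73 on array 2. Gaps are between means of log2 intensities, whereas folds between probes were taken from mean spot intensities. For miR-5100 on array 1 the gap was 2.93, or 7.62-fold against 7.15-fold, and lay above 88.0% of the 200. On array 2 its weaker probe was not detected, so no place is given. Gaps of other miRNAs can rest on dim probes too. miR-3963, with gaps of 1.55 and 1.57, lay above 69.5% and 66.5% of them. The gaps of miR-5126 (0.33 and 0.35) and miR-3960 (0.15 and 0.20) were below the medians. The bases of the probes were not used here, so what the strong probes have in common was not tested.

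**Figure D3:**
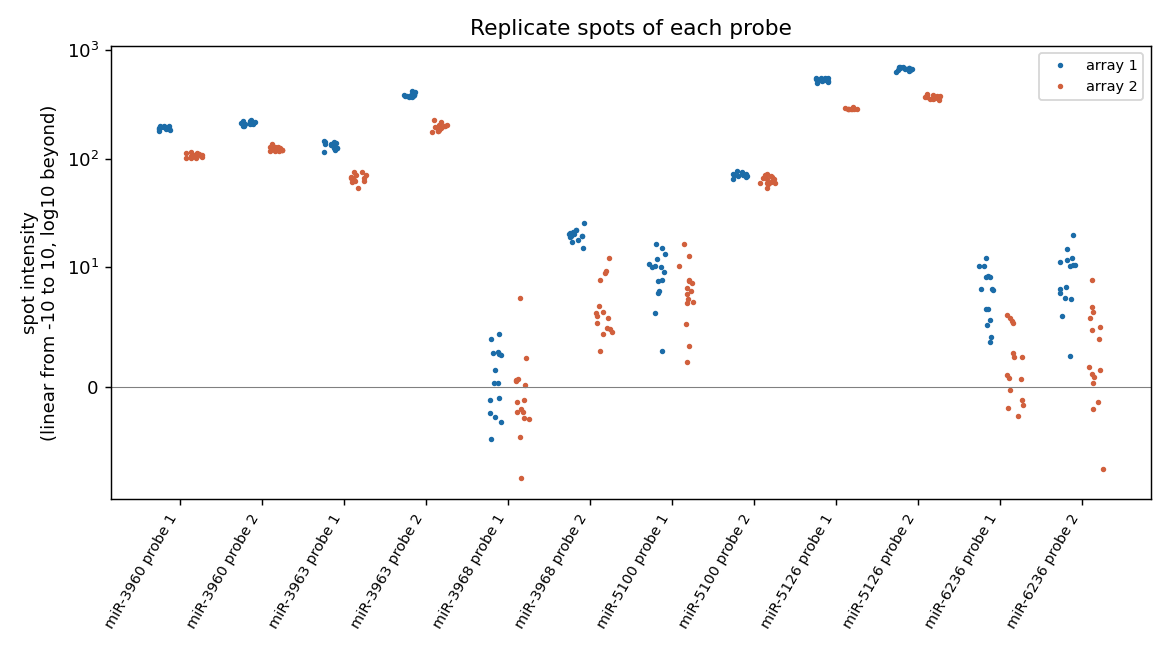
Intensity of each spot (y axis, linear up to a size of 10 and log10 beyond) for the probes of the 6 names on both arrays, outlier spots left out. Spots of a bright probe lie close together, the probes of miR-5100 stand 7.15-fold apart on array 1 and at least 6.47-fold on array 2, and those of miR-3968 probe 1 scatter around 0.

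Before scaling, array 1 was brighter for each of the 4 names detected on both arrays. The excess was 0.99 log2 units for miR-3963, 0.88 for miR-5126, 0.82 for miR-3960 and 0.26 for miR-5100. The first 3 of these lay near the median of 0.78 over all 201 miRNAs, and miR-5100 lay above 28.9% of them and inside the spike-in range of 0.062 to 0.27. After scaling the direction turned: array 1 was lower by 0.72 for miR-3963, 0.84 for miR-5126, 0.89 for miR-3960 and 1.45 for miR-5100. This is because their excess was smaller than the 1.71 units that scaling removed. With the arrays set equal on the spike-in controls, array 1 was again the higher for all 4. For miR-5100 this was by only 0.083, a sign that could turn with the spike-in control used. Which array held more of these RNAs therefore depends on the reference chosen. After scaling 1 of the 4, miR-5100, stood over 2-fold apart between the arrays, against 48.8% of the 201.

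**Figure D4:**
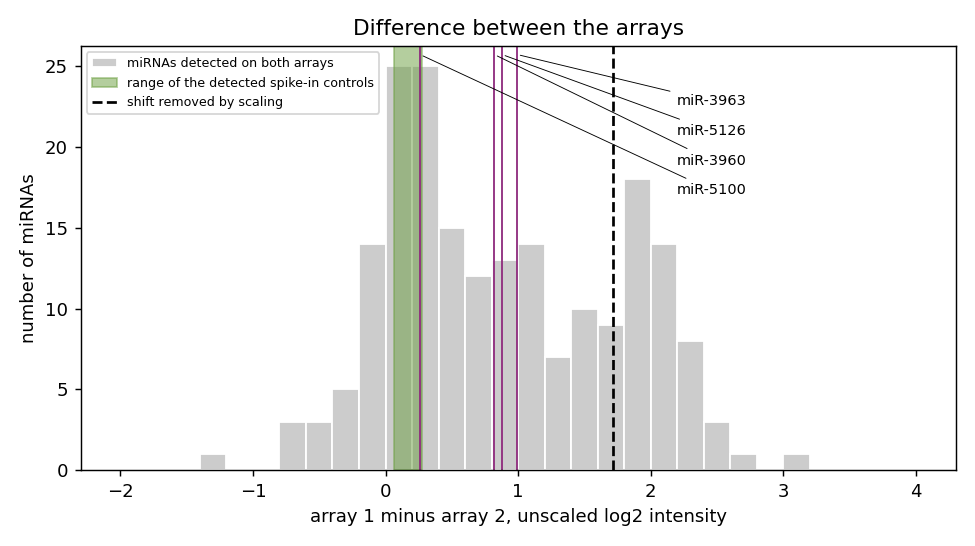
Histogram of the unscaled log2 difference, array 1 minus array 2, over the 201 miRNAs detected on both arrays. Lines mark miR-5100 (0.26), within the spike-in band, and miR-3960, miR-5126 and miR-3963 (0.82 to 0.99), all left of the dashed line at the 1.71 units removed by scaling.

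For 3 of the 6 names, the scanner files listed a total per miRNA that exceeded what the detected probes of that name add up to. On array 1 this held for 2 of the 6 (background 27.6% of detected names) and on array 2 for 1 of the 4 detected there (background 28.4%). Own sums, used here, were 257 and 139.9 on arrays 1 and 2 for miR-5126, 109.9 and 55.5 for miR-3963, 86.2 and 48.9 for miR-3960 and 17.2 and 13.5 for miR-5100. On array 1 alone they were 4.21 for miR-3968 and 2.09 for miR-6236. The ratio of array 1 to array 2 in own sums was 1.98 for miR-3963, 1.83 for miR-5126, 1.76 for miR-3960 and 1.28 for miR-5100. For miR-5100 the sum held both probes on array 1 and only probe 2 on array 2, so its ratio does not compare like with like. Probe 2 alone totalled 15.1 on array 1 and 13.5 on array 2.

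miR-3968 was listed at 114 on array 1, which is 27.1 times its own sum. That figure equals its own 4.21 plus the 109.9 listed for miR-3963, the detected name just before it in alphabetical order. miR-6236 was listed at 204 on array 1, or 97.8 times its own sum, which is its own 2.09 plus the 202 listed for miR-574-5p. miR-5100 was listed at 1261 on array 2, or 93.7 times its own sum, which is its own 13.5 plus the 1248 listed for miR-494-3p. In all 3 cases the first probe of the name was not detected on that array. Where the first probe was detected, as for miR-5100 on array 1, the listed total and the own sum were the same (17.2). Read from the listed totals alone, miR-5100 would have passed from 17.2 on array 1 to 1261 on array 2, and miR-6236 would have appeared nearly as bright as miR-5126.

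**Figure D5:**
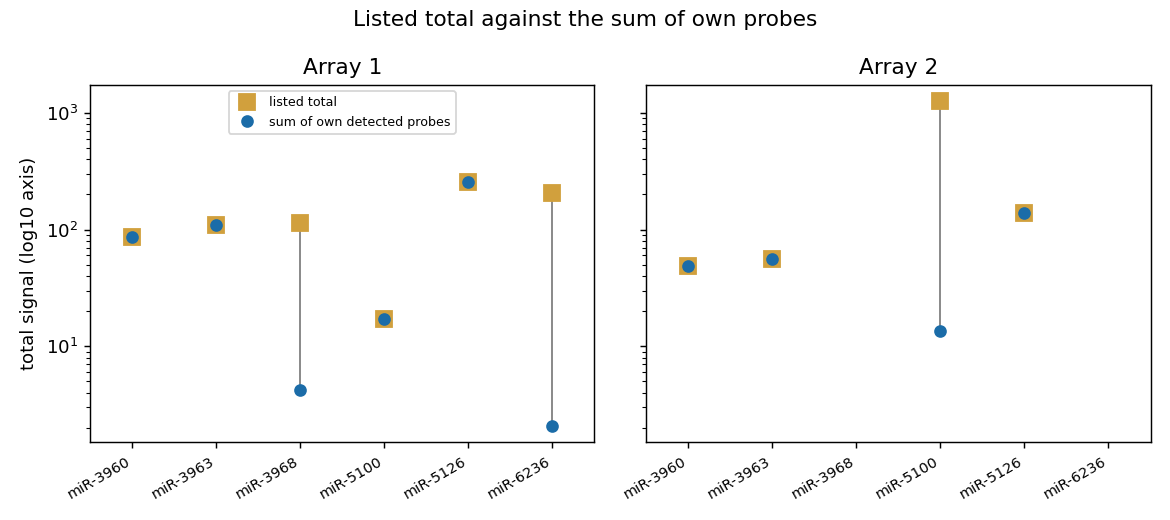
Listed total (squares) and sum of own detected probes (circles) on a log10 axis for the names detected on each array. The pair coincides except for miR-3968 (114 against 4.21) and miR-6236 (204 against 2.09) on array 1 and miR-5100 (1261 against 13.5) on array 2.

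The authors' deposited value table, on a log2 scale with unknown centring, does not carry these large totals for the 6 names. It gave miR-5126 values of 7.51 and 7.78 for arrays 1 and 2, miR-3963 of 5.74 and 6.42, miR-3960 of 5.47 and 6.11 and miR-5100 of 3.38 and 4.40. Each of these was higher in the column of array 2, the opposite of the unscaled intensities and the same direction as after scaling. In this table miR-3968 stood at -0.84 and miR-6236 at -2.23 for array 1, and both at the table's lowest value, -3.32, for array 2. The 2 columns hold the same values in sorted order, so a level there is a place in the ranking and not an amount.

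By signal on both arrays, each detected name was compared with the detected miRNAs outside the 6. Those most like it were found by the distance between their 2 scaled log2 intensities. miR-5100 lay nearest to miR-721 (distance 0.026) and miR-7022-3p (0.074). For miR-3963 they were miR-6931-5p (0.18) and miR-211-3p (0.32), and the same pair was nearest to miR-3960, with miR-211-3p at 0.30 and miR-6931-5p at 0.33. For miR-5126 they were miR-8110 (0.23) and miR-6366 (0.43). Of the 6 themselves, miR-3960 (scaled 6.81 and 7.70) and miR-3963 (6.96 and 7.68) lay closer to each other than to any of these. With only 2 arrays this is a likeness of brightness. Among the 48 array miRNAs whose registry number lies within 10 of one of the 6, 7 were detected on both arrays (14.6%, background 10.7%), with a median scaled log2 intensity of 3.29 against 4.10 over all 201. These 7 were miR-5119, miR-5121, miR-5128, miR-5132-3p, miR-5132-5p, miR-6238 and miR-6240, and the brightest was miR-5128 at 5.20 ± 1.45 (SD, n = 2).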

How the data were processed

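Exosome RNA from 2 samples of 1 group was measured on one-colour arrays, which share a slide and a scan, per the file headers. Per the labels' protocols the RNA was labelled through a kit for amplified cRNA, whereas the scanner protocol in the headers is one for miRNA arrays. The scanner files hold intensity values from the authors' run of the Agilent Feature Extraction software (version 10.7.1.1 in the submitters' processing notes), background-subtracted within each array and not normalized between arrays, per the file headers. The deposited value table holds log2 values. Their normalization is not given in the sources used.

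Control spots and population-outlier spots were left out. A level is the mean over probes of the mean log2 processed intensity, floored at 1, minus the 75th percentile over miRNAs detected on both arrays, plus the mean of both percentiles. Own sums add the listed totals of a name's probes that exceed 3 times their error, and a listed total was called larger when over 1% above. Python 3.11.15, numpy 2.4.6, pandas 2.3.3 and, for normexp, R 4.3.3 with limma 3.58.1 were used, and the summaries were tested on simulated arrays. The text names all 6 miRNAs, the 2 from outside the 6 nearest in signal to each detected one, and the detected miRNAs within 10 registry numbers. Members and lists were chosen with earlier results of these data known. The sequence motif, miR-2861 and the other holders of the motif were chosen after values were seen.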

Additional observations from a re-analysis of the deposited data

How the results depend on the processing

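The number of the 6 names detected on both arrays was 4, and 3 to 6 over the alternatives, with 4 to 6 when either array was left out. The number with a listed total above the own sum was 3, also at tolerances of 5% and 0.1%, and 1 to 2 when either array was left out (1 without array 1). No paired analysis was possible because there is 1 group. Of the recalculated mean levels, 55 moved by less than the SD between the arrays and 21 by more. Part of the 55 was fixed in advance, so this count does not measure robustness. Another scaling factor leaves the mean over the arrays unchanged by construction, and leaving out 1 of 2 arrays always moves it by less than that SD. Nor are the 21 all shifts in level: own sums, listed totals and the value table are on other scales, and normexp added an offset of 50. The level of miR-5100 (4.56) was 6.07 with the brightest probe, 6.52 under normexp (offset 50) and 7.20 with listed totals, and that of miR-3968 (1.98) was 3.46 with the brightest probe, 1.02 with a floor of 0.1 and -2.08 in the value table, where miR-6236 (2.07) was at -2.77. Scaled differences between the arrays, array 1 minus array 2, were recalculated only for the 4 names detected on both, and changed sign in 15 of 44 recalculations. For miR-3960 (-0.89) they became 0.48 with the percentile over all miRNAs, 0.82 unscaled, 0.64 on spike-in controls and 0.27 with listed totals. For miR-3963 (-0.72) the same settings gave 0.65, 0.99, 0.82 and 0.44, and for miR-5126 (-0.84) 0.53, 0.88, 0.70 and 0.33, with 0.057 under normexp. miR-5100 (-1.45) became 0.26 unscaled and 0.083 on spike-in controls. Choice of scaling factor shifts all names alike by construction. With own sums the differences of miR-3960, miR-3963 and miR-5126 were -0.76, -0.59 and -0.70. Their listed totals equal their own sums on both arrays, so between those settings only the scaling factor differed for them. The cause of the other changes was not tested. Signals near the negative controls, as for miR-3968 and miR-6236, limit what can be measured here, and no difference between the arrays is given for them.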
